A study of Mus musculus with 24 samples.

Results

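Levels of 10 genes that encode lipid droplet coat proteins, the droplet lipase and its inhibitor were measured in mouse liver. They are the perilipins Plin2, Plin3, Plin4 and Plin5, the CIDE genes Cidea, Cideb and Cidec, the lipase Pnpla2, its inhibitor G0s2, and Hsd17b13. The genes were found by symbol, and each matched 1 of the 56205 gene rows. Of these 10 genes, 9 passed the filter on low counts that left 14109 genes for testing; Cidea did not. Poly(A) RNA came from whole livers of C57BL/6J mice, for which the labels name no engineered allele. For 20 weeks, 12 mice ate control diet and 12 ate a diet deficient in methionine and choline (MCD), which the study's methods describe as rich in fat (its results name a diet CDAHFD, and whether this is the same diet is not stated); the age of the animals is not given in the labels. Each diet comprised 6 animals per sex, but no label gives the sex of a single library.

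Neutral lipid in hepatocytes is stored in droplets, a triglyceride core under a phospholipid monolayer that carries proteins. Perilipins cover this surface and limit the access of lipases. CIDE proteins act where droplets touch or where lipid is loaded onto lipoproteins, and Pnpla2 (adipose triglyceride lipase) releases the first fatty acid from triglyceride unless it is held by G0s2. A diet without methionine and choline is used in mice to produce steatohepatitis, in which droplets accumulate and fibrosis follows.

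The sequence upstream of the gene is shown for both pairs to which the results below return. Plin2 and Cidec had the closest within-diet patterns among the tested members, and G0s2 and Pnpla2 are inhibitor and enzyme. The sequences are RefSeq promoter windows of GRCm38.p6 (mm10), written 5' to 3' on the strand of the gene and cut so that no base of the annotated transcript is included. Gene positions below are those of GENCODE mouse release 21 on the same build. The windows are chr4:86670061-86670309 (minus strand) for Plin2, chr6:113435761-113436010 (minus strand) for Cidec, chr1:193273218-193273438 (minus strand) for G0s2 and chr7:141454938-141455187 (plus strand) for Pnpla2. Capitals mark AGGTCA, a core motif of nuclear receptors, or GGGCGG, a GC box, on either strand.
Plin2: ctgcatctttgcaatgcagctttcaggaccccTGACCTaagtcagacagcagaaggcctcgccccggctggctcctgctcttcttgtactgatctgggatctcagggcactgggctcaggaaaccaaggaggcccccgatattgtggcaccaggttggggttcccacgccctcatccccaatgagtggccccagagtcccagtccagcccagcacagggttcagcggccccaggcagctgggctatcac
Cidec: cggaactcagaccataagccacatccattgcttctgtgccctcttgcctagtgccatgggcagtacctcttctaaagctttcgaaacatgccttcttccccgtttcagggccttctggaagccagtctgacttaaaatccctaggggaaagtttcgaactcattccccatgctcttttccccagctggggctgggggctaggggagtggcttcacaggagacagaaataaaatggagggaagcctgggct
G0s2: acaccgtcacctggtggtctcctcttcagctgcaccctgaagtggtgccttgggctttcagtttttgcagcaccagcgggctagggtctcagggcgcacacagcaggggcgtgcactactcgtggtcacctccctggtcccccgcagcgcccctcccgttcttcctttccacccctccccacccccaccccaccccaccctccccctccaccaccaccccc
Pnpla2: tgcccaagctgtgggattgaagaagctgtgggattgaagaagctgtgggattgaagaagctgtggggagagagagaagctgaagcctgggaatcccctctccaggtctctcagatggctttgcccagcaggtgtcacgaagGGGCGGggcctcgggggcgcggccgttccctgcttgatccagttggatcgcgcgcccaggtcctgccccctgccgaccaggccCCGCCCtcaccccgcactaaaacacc
Full windows of 250 bases were searched for 9 of the 10 members, and none was searched for Cidea. These windows lie before starts that RefSeq annotates, which need not be those of GENCODE. AGGTCA occurred in windows of Plin2, Plin5 and Hsd17b13, and in 14.0% of all 32851 promoter windows of that length. GGGCGG occurred in windows of Plin3, Plin5, Cideb, Pnpla2 and G0s2, and in 32.7% of all windows; the G0s2 match lay within bases that belong to the annotated transcript and are not printed, and the Plin3 window and 1 of the Plin5 windows lay inside the GENCODE gene. The paired site AGGNCANAGGNCA (0.338% of windows) and the E-box CACGTG (6.02%) occurred in no window of these 9 members, and TATAAA (12.4%) occurred in that of Cideb. AGGTCA can overlap the paired site, both strands were searched, and no match says only that these letters are not in the window.

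Total counts ran from 16793207 to 24915175 in control livers and from 16388650 to 24577848 in MCD livers. TMM scaling factors did not overlap, at 0.642 to 0.973 in control and 1.07 to 1.26 in MCD. Hepatocyte markers were abundant in all libraries. Of their 10 genes, 5 were called lower in MCD with TMM scaling, calls that were lost on total counts alone, and their summed level was 98000 to 211000 CPM (counts relative to the TMM-scaled library size) in control and 75200 to 107000 CPM in MCD. Some libraries stood apart: control replicate 12 had the lowest scaling factor and the highest hepatocyte sum, and MCD replicate 4 held adipocyte transcripts. Adipoq stood at 10.1 CPM there and at no more than 0.14 CPM in any other library, and the adipocyte perilipin Plin1 at 11.2 CPM and no more than 0.0896 CPM. Of the adipocyte markers, only Adrb3 (8.02 CPM) and Lipe (47.5 CPM) were not highest there. Both were highest in control replicate 12, at 15.0 and 97.9 CPM. Over all 9 adipocyte markers, of which 3 were tested and 1 each was called higher and lower (1 and 0 on total counts alone), the sum was 45.1 to 139 CPM in control and 49.3 to 247 CPM in MCD. Macrophage markers summed to 224 to 570 CPM in control and 1690 to 3610 CPM in MCD (highest in MCD replicate 2, the next 2590 CPM), with 7 of 10 called higher and 3 lower (7 and 1 on total counts alone), and the most abundant were Clec4f in control (mean 130 CPM) and Lyz2 in MCD (mean 1140 CPM). Mesenchymal markers, led by Dcn, summed to 209 to 559 CPM and 650 to 1060 CPM, with 6 of 8 higher and 1 lower (6 and 0 on total counts alone). Neutrophil markers, led by S100a9, stayed at 0.236 to 3.18 CPM and 3.64 to 21.3 CPM (highest in MCD replicate 3, the next 8.73 CPM), and the 2 tested of 5 were both higher. Droplet genes are expressed in several of these cells. The part of cell composition in the values of the members, or of the further gene lists below, was not tested. In whole tissue, fewer cells of a type and less RNA per cell cannot be told apart.

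The question was whether the droplet coat and lipolysis genes differ between MCD and control livers. At FDR ≤ 0.01 and |log2FC| > 0.5 (edgeR quasi-likelihood test, Benjamini-Hochberg over all genes tested), 1 of the 9 tested members was called. This was G0s2, which was lower. Most alternatives lost this call, among them limma-voom and edgeR with a sex-linked score or a replicate block. None was called higher in this fit or by DESeq2. Cidec was called higher by limma-voom and by edgeR with a sex-linked score or a replicate block, and Pnpla2 by edgeR on total counts alone; with TMM factors and no covariate, no member was higher at an unadjusted edgeR p under 0.05. Over all genes, 38.3% were called, 19.2% higher and 19.1% lower. The median log2FC was -0.16 over the 9 members and -0.10 over all genes, and the median absolute log2FC was 0.41 in both. No member had diets that did not overlap, compared with 14.4% of all genes tested, 9.5% higher and 4.88% lower in MCD.

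**Figure D1:**
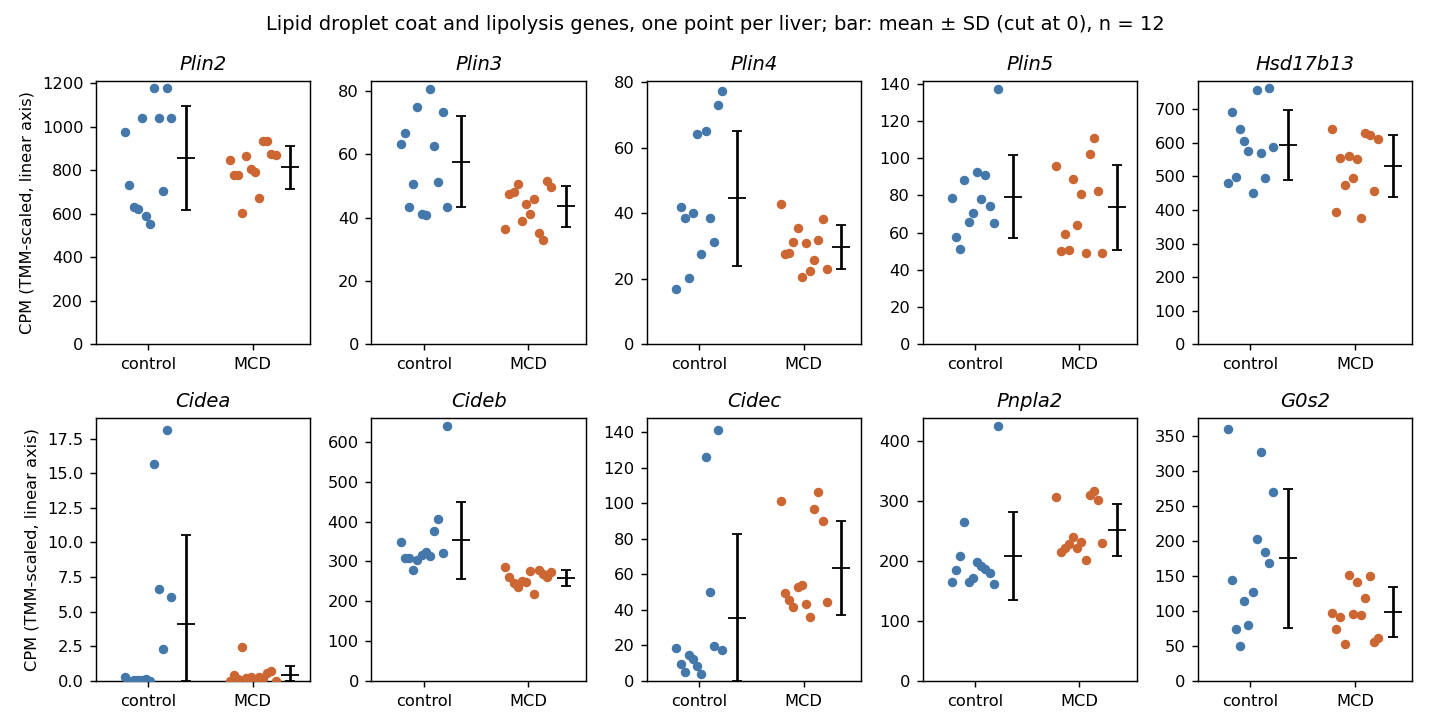
Level of each of the 10 genes in every liver, in CPM on TMM-scaled library sizes (linear axes from 0), with the mean and SD of 12 livers per diet beside the points. Diets overlap in all 10 panels; Cidec and Cidea spread widely in control, and in Cideb the highest MCD value of 285 CPM lies just above the lowest control value of 278 CPM.

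Plin2 (ENSMUSG00000028494, chr4:86648386-86670060, minus strand), the main perilipin of hepatocytes, had the highest level per length of the members. It ranged from 554 to 1180 CPM with a median of 857 CPM in control, and from 606 to 935 CPM with a median of 826 CPM in MCD. All MCD values lay inside the control range, whose highest values were in control replicates 8 and 11. The log2FC was -0.08 ± 0.13 (SE, n = 12 per diet, edgeR FDR = 0.622), with a 95% confidence interval from -0.34 to 0.19. Per length (counts per kb of the longest transcript, scaled to the same sum in each library), Plin2 made up 87.3% ± 2.66 (SD, n = 12) of the perilipin signal in control and 88.8% ± 1.46 (SD, n = 12) in MCD.

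Plin3 (ENSMUSG00000024197, chr17:56277476-56292873, minus strand), which coats small and nascent droplets, ranged from 40.7 to 80.8 CPM with a median of 57.0 CPM in control, and from 32.8 to 51.5 CPM with a median of 45.2 CPM in MCD. Of the MCD livers, 4 lay below all control livers and none above. The log2FC of -0.41 ± 0.12 (SE) had an edgeR FDR of 0.004 and stayed within the fold limit, so Plin3 was not called. Counted on total reads alone the value was -0.05 (edgeR FDR = 0.757).

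Plin4 (ENSMUSG00000002831, chr17:56100591-56109803, minus strand), a perilipin with long amphipathic repeats, ranged from 16.7 to 77.3 CPM with a median of 39.4 CPM in control and from 20.4 to 42.8 CPM with a median of 29.3 CPM in MCD. The MCD values filled the lower part of the control range. The log2FC was -0.58 ± 0.21 (SE), past the fold limit but with an edgeR FDR of 0.0155. Without control replicate 1, 4 or 7 or MCD replicate 1, the gene was called, at -0.63 to -0.66. Exons of Plin4 overlap those of Hdgfl2 on the other strand, so reads could be shared if the counting ignored strand. The study's methods name a strand-specific library kit, but the strand setting of the counting is not given in the sources used here.

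Plin5 (ENSMUSG00000011305, chr17:56111601-56117596, minus strand), which tethers droplets to mitochondria in oxidative tissue, ranged from 51.4 to 137 CPM with a median of 76.1 CPM in control and from 48.9 to 111 CPM with a median of 72.4 CPM in MCD. Of the MCD livers, 4 lay just below all control livers, and the highest control value was that of control replicate 12. The log2FC was -0.11 ± 0.16 (SE, edgeR FDR = 0.57). Without control replicate 12 it was 0.02. Within MCD, Plin2 and Plin5 moved together across livers (Pearson's r = 0.716, Spearman's rho = 0.72, n = 12, permutation p adjusted over 8 relations = 0.0204 and 0.0441). Without the 2 livers farthest from the Plin2 median, r was 0.665 (adjusted permutation p = 0.109), and in control it was 0.182 (adjusted permutation p = 0.781).

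Hsd17b13 (ENSMUSG00000034528, chr5:103955440-103977410, minus strand), a hepatocyte droplet enzyme, ranged from 451 to 765 CPM with a median of 582 CPM in control and from 375 to 643 CPM with a median of 552 CPM in MCD. MCD replicates 2 and 8 lay below all control livers. The log2FC was -0.16 ± 0.11 (SE, edgeR FDR = 0.19). Its spread among control livers was small, with an SD of 0.25 on the log2 CPM scale against a median of 0.39 over all genes tested.

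Cideb (ENSMUSG00000022219, chr14:55754050-55758458, minus strand), the family member that hepatocytes use for lipoprotein lipidation, ranged from 278 to 640 CPM with a median of 319 CPM in control and from 218 to 285 CPM with a median of 261 CPM in MCD. Of the 12 MCD livers, 11 lay below all control livers, and the highest control value was that of control replicate 12. The log2FC of -0.45 ± 0.10 (SE) had an edgeR FDR of 0.00051 but stayed within the fold limit, and Cideb was not called. On total counts alone the value was -0.06 (edgeR FDR = 0.436). Exons of Cideb overlap those of Nop9 on the other strand.

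Cidec (ENSMUSG00000030278, chr6:113424634-113435760, minus strand), also known as Fsp27, which fuses droplets into larger ones, ranged from 3.77 to 141 CPM with a median of 16.1 CPM in control and from 36.2 to 106 CPM with a median of 51.2 CPM in MCD. In 9 of 12 control livers Cidec lay below every MCD liver, and control replicates 8 and 11 lay above all of them. The highest control value was 37.4 times the lowest, against 2.91 times in MCD. The SD of log2 CPM in control was 1.64, larger than that of 99.0% of genes tested. The log2FC was 0.84 ± 0.48 (SE, 95% confidence interval -0.15 to 1.82, edgeR FDR = 0.131), which did not pass. By limma-voom the log2FC was 1.68 (limma FDR = 0.00221), and with a replicate block in the edgeR fit 1.75 (edgeR FDR = 0.0014). With a numeric score of sex-linked genes as covariate it was 1.37 (edgeR FDR = 0.0018). All of these passed.

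That score, log2 CPM of Xist minus the mean of 4 Y-linked genes, fell into separate ranges with 6 libraries of each diet in each, and no library was assigned a sex by it. In the fit with diet, Cidec was lower by a log2 difference of -2.11 ± 0.42 (SE) from the lowest to the highest score (edgeR FDR = 0.00154). The corresponding differences were -0.44 ± 0.12 (SE) for Plin2 (edgeR FDR = 0.0207) and -0.72 ± 0.28 (SE) for G0s2 (edgeR FDR = 0.12). Of all genes, 3.48% reached an FDR of 0.01 for the score. The interaction of score and diet reached it for 0.411% of all genes and for no member. Its lowest FDR among the members was that of G0s2, with a log2 value of 1.67 ± 0.45 (SE, edgeR FDR = 0.0661), and Cidec stood at 2.06 ± 0.69 (SE, edgeR FDR = 0.166).

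Cidea (ENSMUSG00000024526), a CIDE gene of brown fat that appears in fatty liver, was near the counting floor in most livers. It ranged from 0 to 18.1 CPM with a median of 0.198 CPM in control and from 0 to 2.45 CPM with a median of 0.249 CPM in MCD. More than 3 counts were found in 6 control and 8 MCD livers. The highest MCD value, 58 counts, came from MCD replicate 4, the library with adipocyte transcripts. In control, 5 livers held 2.34 to 18.1 CPM and 7 held 0.273 CPM or less. Over all 12 control livers, Cidea and Cidec had Pearson's r = 0.882 (adjusted permutation p = 8e-05) and Spearman's rho = 0.893 (adjusted permutation p = 0.00128). Without the 2 livers farthest from the Cidea median, r was 0.772 (adjusted permutation p = 0.0458). With the sex-linked score regressed out it was 0.677 (adjusted permutation p = 0.0555), which did not pass the limit of 0.05 used for permutation tests. The livers fell into separate clusters and 6 held Cidea at or under 3 counts, so no graded relation can be read from the pooled r. In MCD, r was 0.0136 (adjusted permutation p = 0.968), and 0.585 without the 2 farthest livers (adjusted permutation p = 0.146); the difference between diets was not tested. In a fit without a filter on low counts, over 27553 genes, the log2FC of Cidea was -3.22 ± 0.89 (SE, edgeR FDR = 0.00433). This value rests on the 5 control livers at 2.34 to 18.1 CPM. The means were 4.12 ± 6.45 CPM in control and 0.434 ± 0.669 CPM in MCD (SD, n = 12), while the medians nearly coincided.

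**Figure D2:**
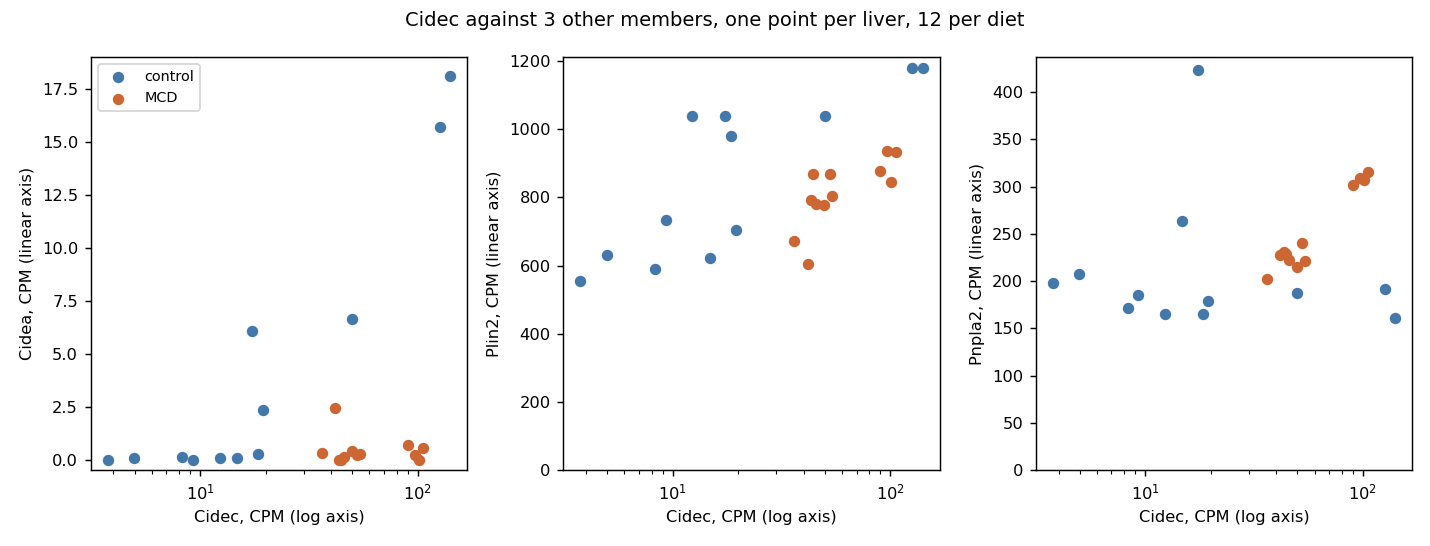
Cidec (x, CPM, log axis) against Cidea, Plin2 and Pnpla2 (y, CPM, linear axes), 1 point per liver and 12 livers per diet. Cidea exceeds 2 CPM in 5 control livers and in MCD replicate 4 alone, and 4 MCD livers with Cidec at 89.8 to 106 CPM also hold Pnpla2 at 302 to 316 CPM.

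Pnpla2 (ENSMUSG00000025509, chr7:141455198-141460743, plus strand) ranged from 161 to 424 CPM with a median of 186 CPM in control and from 202 to 316 CPM with a median of 230 CPM in MCD. Control replicate 12 held the highest value, and without it the next control liver stood at 264 CPM. The log2FC was 0.27 ± 0.14 (SE, edgeR FDR = 0.0817); on total counts alone it was 0.66 (edgeR FDR = 8.95e-06), which passed. Without control replicate 12 and MCD replicate 4 it was 0.47 (edgeR FDR = 0.000232), within the fold limit. In MCD, replicates 1, 9, 10 and 11 had 302 to 316 CPM and the other 8 livers 202 to 240 CPM. The same 4 livers had Cidec at 89.8 to 106 CPM, which was noticed after the values were seen and was not tested.

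G0s2 (ENSMUSG00000009633, chr1:193272161-193273217, minus strand) ranged from 49.7 to 361 CPM with a median of 157 CPM in control and from 53.0 to 152 CPM with a median of 94.7 CPM in MCD. Of the control livers, 6 lay above all MCD livers, control replicate 12 among them, and the MCD values filled the lower part of the control range. The log2FC was -0.83 ± 0.27 (SE, 95% confidence interval -1.38 to -0.28, edgeR FDR = 0.00885). This was the one call among the members, and it rested close to the limit. It was lost in 16 of 24 fits that left out 1 library, where log2FC ran from -0.92 to -0.64 and the FDR from 0.0021 to 0.0319, and in 10 of 12 other alternatives, where the log2FC ran from -0.83 to -0.42.

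**Figure D3:**
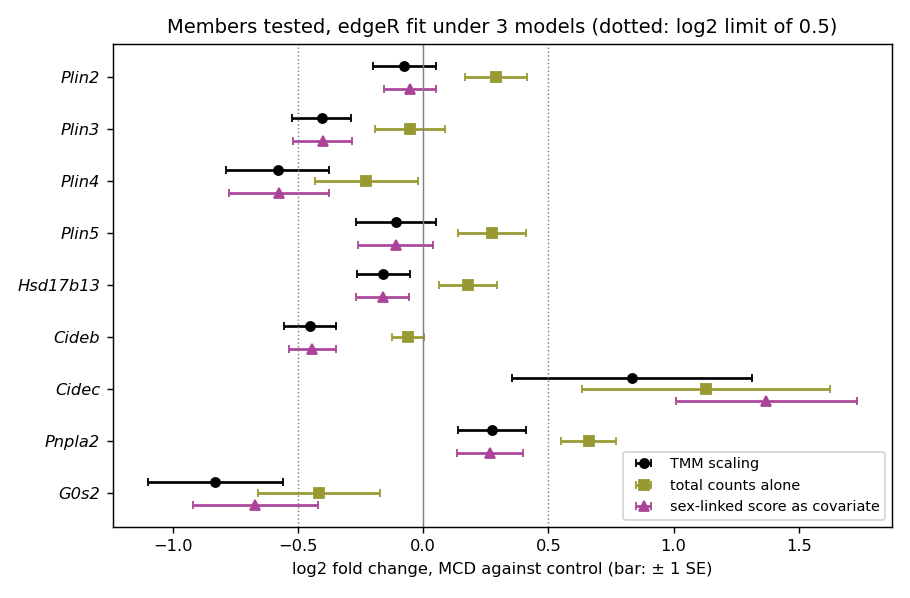
Log2FC of the 9 tested members (x, MCD against control, bars ± 1 SE) under TMM scaling, total counts alone and TMM scaling with the sex-linked score as covariate, with dotted lines at the fold limit of 0.5. Cidec moves from 0.84 to 1.37 with the score, and every member lies higher on total counts alone, which turns the sign of Plin2, Plin5 and Hsd17b13.

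Scaling moved all members together. On total counts alone, the log2FC of a gene lay a median of 0.359 above its value with TMM factors, and the sign turned for Plin2 (0.29), Plin5 (0.27) and Hsd17b13 (0.18). Ratios of 2 members within a library do not depend on scaling, and 7 were compared between diets (two-sided permutation test of the mean log2 ratio, 100000 resamples, Benjamini-Hochberg over the 7).

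G0s2 over Pnpla2, the inhibitor relative to its lipase, had a mean log2 ratio of -0.42 ± 0.97 (SD, n = 12) in control and -1.42 ± 0.54 (SD, n = 12) in MCD. The difference was -1.0, a factor of 0.499 (permutation p = 0.00458, adjusted p = 0.0107). The diets overlapped widely, and only 1 MCD liver lay below all control livers. Cidec over Cideb had a mean log2 ratio of -4.23 ± 1.65 (SD, n = 12) in control and -2.13 ± 0.50 (SD, n = 12) in MCD, a difference of 2.10 or a factor of 4.28 (adjusted permutation p = 0.00504). Here too the diets overlapped, with control replicates 8 (-1.311) and 11 (-1.191) above every MCD liver (highest -1.351). A mean of log2 ratios gives low control values more weight than the edgeR fit does, where Cidec was not called (0.84) and Cideb stood at -0.45. Per length, Cidec made up 6.09% ± 7.63 (SD, n = 12) of the CIDE signal in control and 14.3% ± 4.46 (SD, n = 12) in MCD, while Cideb held 92.9% and 85.5%. Cidea over Cidec differed by -3.13 with 0.5 added to each count. Cidea, however, lay at or under 3 counts in 6 control and 4 MCD livers. In single livers with 0 counts of Cidea the ratio rests on the added 0.5, and nothing is read from its test.

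Among the perilipins, Plin2 over Plin3 was higher in MCD by 0.35 on the log2 scale, a factor of 1.27 (adjusted permutation p = 0.0257). Without MCD replicate 10 the difference was 0.293 and did not pass. Plin4 over Plin2 differed by -0.43 (adjusted permutation p = 0.0823), Plin5 over Plin2 by -0.09 (adjusted permutation p = 0.596) and Hsd17b13 over Plin2 by -0.13 (adjusted permutation p = 0.334).

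**Figure D4:**
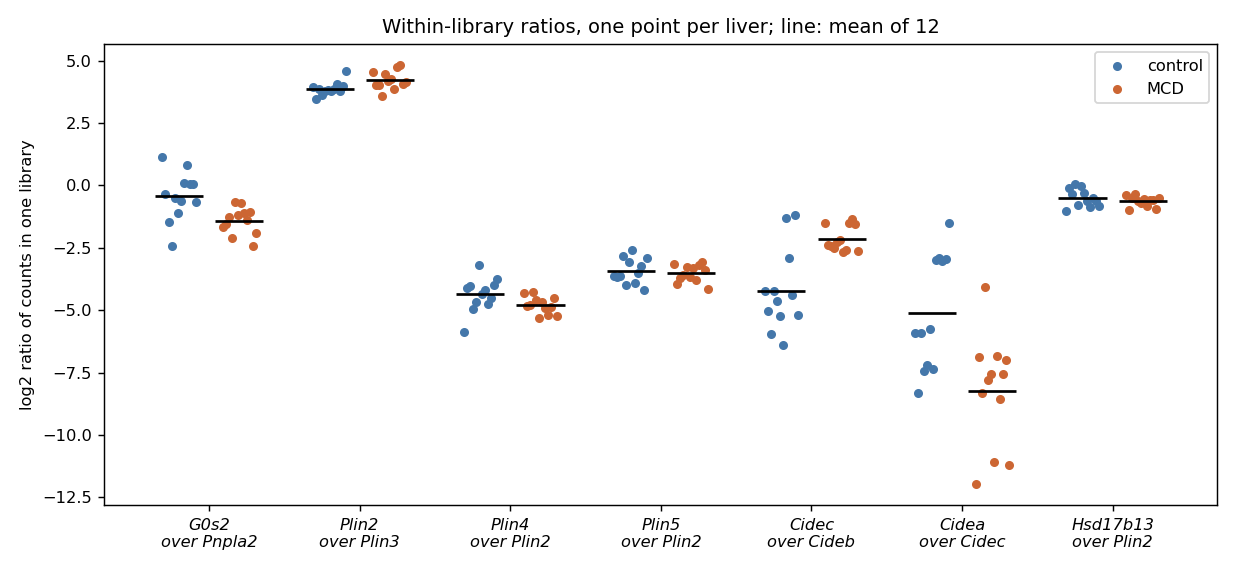
Log2 ratio of counts of 2 members within each library (y) for the 7 pairs (x), 1 point per liver with a line at the mean of 12 livers per diet. Cidec over Cideb lies higher and G0s2 over Pnpla2 lies lower in MCD, with overlapping points in each pair; the lowest points of Cidea over Cidec are livers with 0 counts of Cidea.

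Per length, the order of the members in control was Plin2 (760), Hsd17b13 (593), Cideb (476), G0s2 (321), Pnpla2 (130), Plin5 (65.3), Cidec (36.2), Plin3 (27.0), Plin4 (13.0) and Cidea (6.27). Neighbours in this order differed by more than the larger of their SDs only at G0s2 and Pnpla2, Pnpla2 and Plin5, and Plin3 and Plin4 in control. The order was the same in MCD, where Pnpla2 (205 ± 29.5, SD, n = 12) stood within that spread of G0s2 (242 ± 83.9, SD, n = 12), and Plin5 (78.8 ± 21.9) and Cidec (78.2 ± 30.2) stood level; all other neighbours differed by more. Cidea was last in both diets, at 0.842 in MCD.

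Some members varied together within a diet. After each diet's mean was subtracted, the r of log2 CPM over 24 libraries was 0.79 for Plin2 with Cidec and 0.62 for Plin2 with G0s2. It was 0.73 for Plin5 with Pnpla2, 0.65 for Cideb with Pnpla2 and 0.58 for Plin5 with Cideb, whereas Cidec with Pnpla2 gave 0.05. Plin3 ran opposite to some members, at -0.50 with Pnpla2, -0.49 with Plin5 and -0.32 with Cideb. These values are descriptions, since the libraries share their scaling factor and control replicate 12 was high in Plin5, Cideb and Pnpla2. The sex-linked score was not removed from them, and its fitted differences were -2.11 for Cidec, -0.72 for G0s2 and -0.44 for Plin2. An r over both diets can also hide a difference between them. Plin2 with Plin5 gave 0.33 over 24 libraries, against 0.182 in control and 0.716 in MCD. Among 10078 other genes with at least 5 CPM, the pattern closest to Cidec was that of Osbpl3 (r = 0.899) and Cgref1 (r = 0.898). Closest to Cideb were Acaa1a (r = 0.954) and Akr7a5 (r = 0.943), and closest to Plin2 were 2010003K11Rik (r = 0.836) and Aldh1a7 (r = 0.824). For G0s2 they were Tdrp (r = 0.823) and Ube2a (r = 0.811), and for Pnpla2 Slc25a39 (r = 0.851) and Cda (r = 0.848). For Plin3 they were Papss1 (r = 0.813) and Hmgcs1 (r = 0.80), for Plin4 Abcc3 (r = 0.861) and Atg7 (r = 0.77), for Plin5 Gde1 (r = 0.864) and Rtf2 (r = 0.842), and for Hsd17b13 Slc20a1 (r = 0.746) and Tubb2a (r = 0.74).

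The rest of the droplet and lipolysis machinery was read from a list of 38 further genes, of which 35 were tested. There, 4 genes were called higher and 13 lower, against 19.2% and 19.1% of all genes, and the median log2FC was -0.44. On total counts alone, where 84.3% of all calls were higher, the list had 5 genes called higher and 6 lower. With TMM scaling, the 4 that rose were Lpcat2 (1.51 ± 0.14) and Lpcat1 (1.49 ± 0.11), enzymes that remodel the phospholipid surface, Hilpda (1.31 ± 0.18), an inhibitor of Pnpla2, and Ldaf1 (1.15 ± 0.16), a seipin partner in droplet assembly (log2FC ± SE). Hilpda ranged from 1.16 to 4.37 CPM in control and from 4.47 to 9.86 CPM in MCD, so the diets did not overlap. All 4 genes were at low levels, with means of 2.49 to 4.09 CPM in control and 6.16 to 11.5 CPM in MCD. Of the 10 macrophage markers, 7 were called higher and 3 lower, and the part of cell composition in these rises was not tested.

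Among genes that fell, Pnpla3, a droplet acyl hydrolase, had the largest fitted change. It ranged from 0.622 to 24.3 CPM in control and from 0.0468 to 0.928 CPM in MCD, with a log2FC of -4.63 ± 0.58 (SE, edgeR FDR = 1.53e-07). The MCD livers held 1 to 22 counts of Pnpla3 with a median of 4, near the counting floor of 3, which limits how exactly this fold is known. Mgll, which completes triglyceride breakdown at the monoglyceride step, fell from 374 ± 82.7 CPM (SD, n = 12) to 138 ± 19.9 CPM (SD, n = 12), a log2FC of -1.44 ± 0.11 (SE, edgeR FDR = 6.4e-11). Vps13c (-1.32), a lipid transfer protein, Hsd17b7 (-1.11), a sterol synthesis enzyme, and Ldah (-0.92), a droplet hydrolase, followed. Lipe, the hormone-sensitive lipase, fell by 0.60 (edgeR FDR = 0.00181) but was not called with upper-quartile factors (-0.44), on total counts alone (-0.19) or without control replicate 12 (-0.41), and the Pnpla2 coactivator Abhd5 had a log2FC of -0.41 ± 0.12 (SE, edgeR FDR = 0.00485), within the fold limit.

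**Figure D5:**
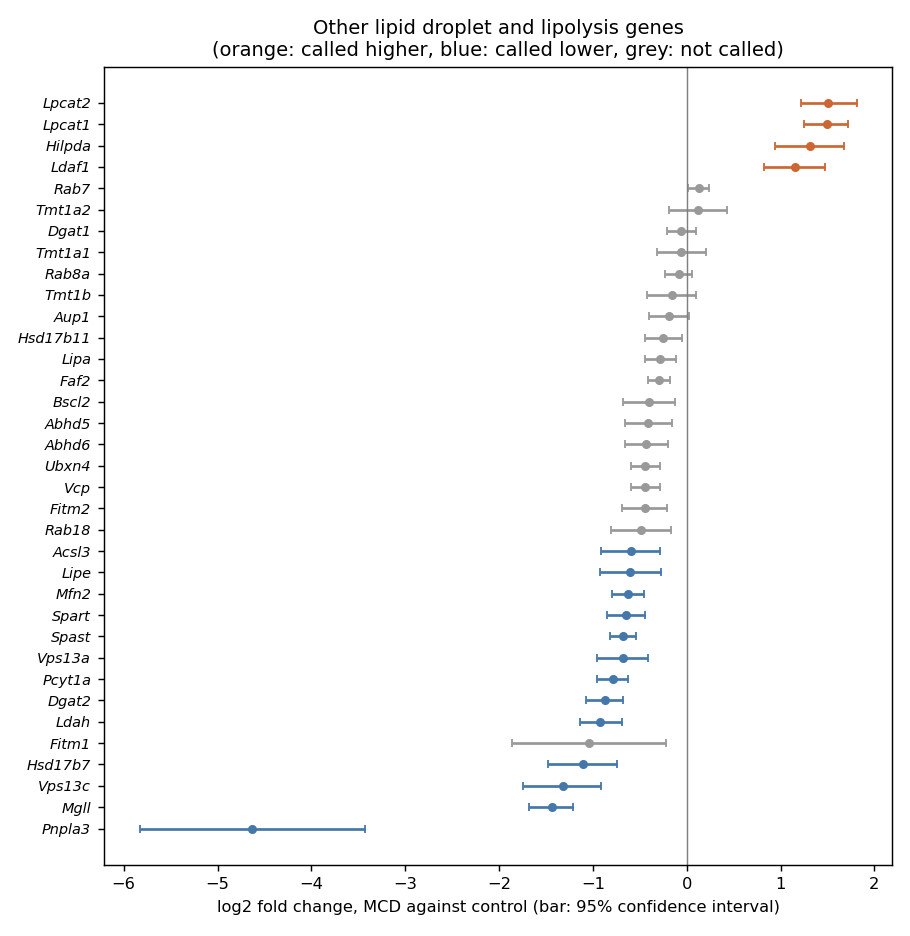
Log2FC (x, MCD against control) with 95% confidence intervals for the 35 tested genes of the wider droplet and lipolysis list (y), coloured by call. The 4 genes called higher lie between 1.15 and 1.51, and Pnpla3 lies lowest at -4.63.

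Transcription factors and coactivators known to control perilipin and CIDE genes were read in the same way. Of 17, all tested, edgeR called 0 higher and 8 lower, against 19.2% and 19.1% of all genes, and the median log2FC was -0.48 against -0.10. The 10 hepatocyte markers had a median log2FC of -0.56, with 5 called lower and 0 higher. On total counts alone, 3 were called higher and 4 lower. Cebpb (0.55, edgeR FDR = 0.0165) and Tfeb (0.32, edgeR FDR = 0.0169), named after their values were seen, were the 2 that were higher at an unadjusted p under 0.05; DESeq2 and limma-voom each called 1 higher, Cebpb. Ppara, the fatty acid receptor that drives several perilipin genes, fell by 1.76 on the log2 scale (edgeR FDR = 2.51e-08), and Srebf1, which drives fatty acid synthesis, fell by 1.60 (edgeR FDR = 1.45e-07). Ppargc1b fell by 1.12 and Epas1 fell by 1.07. Cebpa (-0.83), Rxra (-0.65), Hif1a (-0.62) and Foxo1 (-0.51) were also called lower. On total counts alone none of these 4 was called (-0.46, -0.30, -0.27 and -0.17). Hif1a was also not called with upper-quartile factors (-0.47). Foxo1 lay at the fold limit and was not called in most other alternatives either, such as DESeq2 (-0.45). Pparg, a known driver of Cidec in fatty liver, ranged from 7.98 to 24.9 CPM in control and 10.2 to 15.6 CPM in MCD, with a log2FC of -0.20 ± 0.14 (SE, edgeR FDR = 0.224). Pparg and Cidec had r = 0.634 in control (n = 12, adjusted permutation p = 0.0697) and -0.358 in MCD (adjusted permutation p = 0.506). The correlations of G0s2 with Pnpla2 were -0.0139 in control and 0.212 in MCD (n = 12 each, adjusted permutation p = 0.968 and 0.781).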

How the data were processed

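Poly(A) RNA of 24 whole livers (12 control, 12 MCD) was sequenced. The deposited values are raw read counts per Ensembl gene, 1 column per library. The submitters' processing notes name bcl2fastq, STAR 2.7.3a and mm10. The study's methods name a stranded mRNA library kit, and EQP and PISCES for quantification on a human reference. The counting program and strand setting of the mouse libraries are not given in the sources used here. All 24 columns matched a sample title. Rows without a GENCODE mouse release 21 symbol held 0.0808% of counts.

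Counts were filtered by edgeR's filterByExpr by diet, scaled by TMM and tested with edgeR 4.0.16 (glmQLFit, glmQLFTest; R 4.3.3) without covariates, with Benjamini-Hochberg adjustment over 14109 genes. A gene was called at FDR ≤ 0.01 and |log2FC| > 0.5. Only these limits follow the study's methods, which used them for human livers with DESeq2 and sex as a covariate. The biological coefficient of variation was 26.8%. Log2 CPM used a prior count of 2. The main fit held no sex term because the labels give no sex per library. With the sex-linked score as covariate, Cidec was called and G0s2 was not. Alternatives were other scaling factors, filters, thresholds, DESeq2 1.42.0, limma-voom (limma 3.58.1), a replicate block, the sex-linked score and leaving out each library. Permutation tests used 100000 resamples (numpy 2.4.6, scipy 1.17.1). On simulated counts for the diet comparison over 14109 genes, edgeR recovered 90 of 100 genes changed by 1 on the log2 scale and 98 of 100 changed by 2, with 0 false calls. Only these genes were changed, equally in both directions, whereas 38.3% of genes were called in the data. The simulation held no shift between diets in the other genes, so it does not test the scaling. The counting floor was 3 counts and covers counting error only.

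All 10 members are named, with called genes of the 2 further lists (up to 5 each way for droplet genes, plus Ppara, Pparg and Srebf1), the most abundant marker of each list and the 2 closest patterns of each tested member. Lipe, Abhd5, Cebpb and Tfeb were added after their values were seen. Members and lists were chosen with earlier results of these data known.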

Additional observations from a re-analysis of the deposited data

How the results depend on the processing

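Plin3, Plin4, Cideb, Cidec, Pnpla2, G0s2 and all 7 ratios kept their direction under every alternative run. Plin2 turned to 0.075 with upper-quartile factors, 0.289 on total counts alone, 0.008 with at least 10 counts in every library and 0.032 without control replicate 12 and MCD replicate 4, an alternative chosen after the data were seen. Plin5 turned to 0.048 with upper-quartile factors, 0.275 on total counts and 0.083 without both libraries, Hsd17b13 to 0.179 and Pparg to 0.16 on total counts. The G0s2 call was lost at -0.76 (relative log expression factors), -0.664 (upper quartile), -0.417 (total counts), -0.773 (no filter), -0.739 (at least 10 counts), -0.697 (limma-voom), -0.671 (sex-linked score), -0.633 (without both libraries) and -0.83 (log2 limit of 1). Pnpla2 was called on total counts (0.661), and Cidec by limma-voom (1.675) and with the score (1.371). At FDR 0.05 with no fold limit, Plin3 (-0.406), Plin4 (-0.582) and Cideb (-0.452) passed. The causes were not tested. Left-out single libraries gave -0.125 to 0.001 for Plin2, -0.16 to 0.024 for Plin5, -0.656 to -0.45 for Plin4, 0.718 to 1.287 for Cidec (highest without control replicate 11), 0.24 to 0.448 for Pnpla2 (highest without control replicate 12), -0.196 to -0.082 for Hsd17b13 (nearest 0 without MCD replicate 8) and -0.925 to -0.636 for G0s2, whose call held only without control replicate 2, 3, 4, 5, 6 or 7 or MCD replicate 5 or 10. They gave 0.293 to 0.411 for Plin2 over Plin3 (lost without MCD replicate 10; 0.47 without both libraries) and -0.567 to -0.325 for Plin4 over Plin2 (passing without control replicate 1).

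Members called lower numbered 0 to 2 without 1 library and 0 with relative log expression, upper-quartile or total-count scaling, at least 10 counts, limma-voom, the score, a log2 limit of 1 or both libraries left out, and 4 at FDR 0.05; members called higher numbered 1 on total counts, by limma-voom and with the score. Of the further droplet genes, 6 were lower on total counts, 24 at FDR 0.05 and 4 at the log2 limit of 1. Regulators called higher numbered 0 to 1 without 1 library, 1 with upper-quartile factors, at least 10 counts, DESeq2, limma-voom or both libraries left out, 3 on total counts and 2 at FDR 0.05, and 4 were lower on total counts and at the log2 limit of 1. Over all genes, 1710 were lower with upper-quartile factors, 4539 higher and 848 lower on total counts, 1801 higher with at least 10 counts, 5221 lower at FDR 0.05 and 686 lower at the log2 limit of 1, and the share called higher was 50.2% with TMM, 65.6% with upper-quartile factors and 84.3% on total counts.

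Correlations were less stable. Pparg with Cidec in control rose to 0.74 without the 2 farthest libraries (adjusted permutation p = 0.0496), and G0s2 with Pnpla2 in control turned to 0.376. Plin2 with Plin5 turned in control to -0.0785 (total counts) and -0.139 (score regressed out), and in MCD no longer passed at 0.665 (2 farthest libraries left out), 0.609 (total counts) and 0.683 (score regressed out). Cidea with Cidec in control was 0.882, 0.865 on total counts (adjusted permutation p = 0.00032) and 0.772 without the 2 farthest libraries, and no longer passed at 0.677 with the score regressed out, an alternative for the correlations chosen after the data were seen.

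The labels give no shared origin for replicate numbers, and not every same-number pair had r over 0.1 (8 of 12 did; median r 0.233, against -0.0592 for other pairs), so the numbers were not taken to pair the libraries; 2 libraries correlated best with their own number. With the replicate block in the edgeR fit, Cidec was called (1.747), G0s2 was not (-0.685), 1 member was higher and 0 lower, and 1 regulator was higher. No depth limit applied to the 9 tested members, whose lowest count was 81; Cidea lay at or under the floor of 3 counts in 6 control and 4 MCD libraries.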
